A study of Drosophila melanogaster with 6 samples.

Results

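A total of 3359 genes of the Drosophila melanogaster annotation were counted as a single exonic part, that is, as 1 unbroken stretch of exon with no annotated splice junction and no new junction. They were found among 14537 genes or groups of overlapping genes, of which 12133 genes were counted alone, and they made up 27.7% of the genes counted alone. The comparison set was the 8346 genes counted alone that have at least 1 annotated junction, called junction genes here. Since such a gene has no spliced form to compare, its count on the part equalled its gene count in all 3359 cases, and only the level and its change with age could be measured. RNA from dissected eyes of male flies was sequenced at day 40 (3 libraries) and at day 10 (3 libraries) after eclosion. All flies carried the same genotype at both ages, w with UAS-GFP-Msp300KASH and rh1-GAL4, in which the rh1 promoter drives a nuclear envelope tag in the outer photoreceptors. The labels call these flies WT, and no group without the transgenes was sequenced. The flies were kept at 25 °C in a 12:12 light and dark cycle, and the RNA was total RNA depleted of ribosomal RNA. The study followed how the transcripts of the aging eye change between these ages. A further 2 genes with 1 part had a new junction and fell outside the set, the transgene itself and mt:ND1.

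Genes without introns skip splicing, so their transcripts can be made quickly, and in flies they include the core histone genes, the Hsp70 chaperones, the Enhancer of split genes and many antimicrobial peptide genes. Many noncoding RNAs are also unspliced at their own locus, such as transfer RNAs, small nuclear RNAs and small nucleolar RNAs (snoRNAs). The box H/ACA snoRNAs, named Psi in flies, guide pseudouridylation of ribosomal RNA, and the box C/D snoRNAs, named Me, guide its methylation; many lie in introns of ribosomal protein genes and are cut from the spliced-out intron. By the Release 6 annotation the set held 1437 protein-coding genes, 1060 long noncoding RNAs (lncRNAs), 267 tRNAs, 234 snoRNAs and small Cajal body RNAs (scaRNAs), 125 pseudogenes, 97 rRNAs, 27 snRNAs, 26 genes of the mitochondrial genome, 9 other structured RNAs and 77 genes that were not annotated there. A symbol was found for all but 61 of them.

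Gene counts totalled 8476220 to 12686867 at day 40 and 8946125 to 15029770 at day 10, and the precision of a low count is set by these totals. Photoreceptor markers were abundant at both ages: 9 of 10 were counted alone, summed to 856135 to 1038094 normalized counts at day 40 and 729409 to 1311429 at day 10, and none of the 9 was called in edgeR's quasi-likelihood test. Day 10 replicate 3 had the highest sums of muscle and hemocyte markers. Muscle markers (5 of 6 counted alone, none called) summed to 4352 to 4872 at day 40 and to 4436, 4636 and 7436 at day 10, the highest being replicate 3. Of 4 hemocyte markers, whose sum was 5382 to 6399 at day 40 and 6889 to 8428 at day 10, Hml was lower at day 40. Ppn and Hml held most of this sum, with means of 3789 and 2765 normalized counts over the 6 libraries. Of the fat body markers, 3 of 6 were counted alone, with a sum of 11327 to 12643 at day 40 and 11367 to 13219 at day 10. Tsf1, with a mean of 11770.5 normalized counts over the 6 libraries, made up nearly all of this sum. Yp2 was lower at day 40, with 108, 92.9 and 27.9 against 344, 391 and 1313. Testis markers summed to at most 33.8 in any library. Of the pigment and cone cell markers, 4 of 6 were counted alone. Crys and w, which mark lens and pigment cells, were lower at day 40 as well. Neither st (log2 change -0.21, adjusted p = 0.568 in edgeR) nor v (log2 change 0.22, adjusted p = 0.781) was called. All flies were of the w genotype, and whether reads of w reflect pigment cells was not tested. In whole eyes, fewer cells of a type and less RNA per cell cannot be told apart.

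Single-part genes were low. Normalized counts are counts divided by a size factor per library. The median single-part gene had a mean of 2.53 normalized counts over the 6 libraries, against 88.6 for junction genes, so its level was 2.86% of theirs. Their exonic length was also shorter, with a median of 584 bases against 1777, and per kilobase of exon the medians were 4.42 and 49.1 normalized counts. A total of 386 single-part genes (11.5%) had no count in any library, against 74 junction genes (0.887%). A count of 0 in 1 library taken alone allows up to 3 reads there, and 0 in all 6 libraries allows fewer per library. This limit covers counting error only. The single-part genes without a count include 82 histone genes and all but 30 of the 100 genes named 5S rRNA. Copies of these are near identical, and whether reads shared by such copies were counted was not tested. The RNA was also depleted of ribosomal RNA, and the part of this step in the 5S rRNA counts was not tested. The remaining 2973 had at least 1 read.

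**Figure D1:**
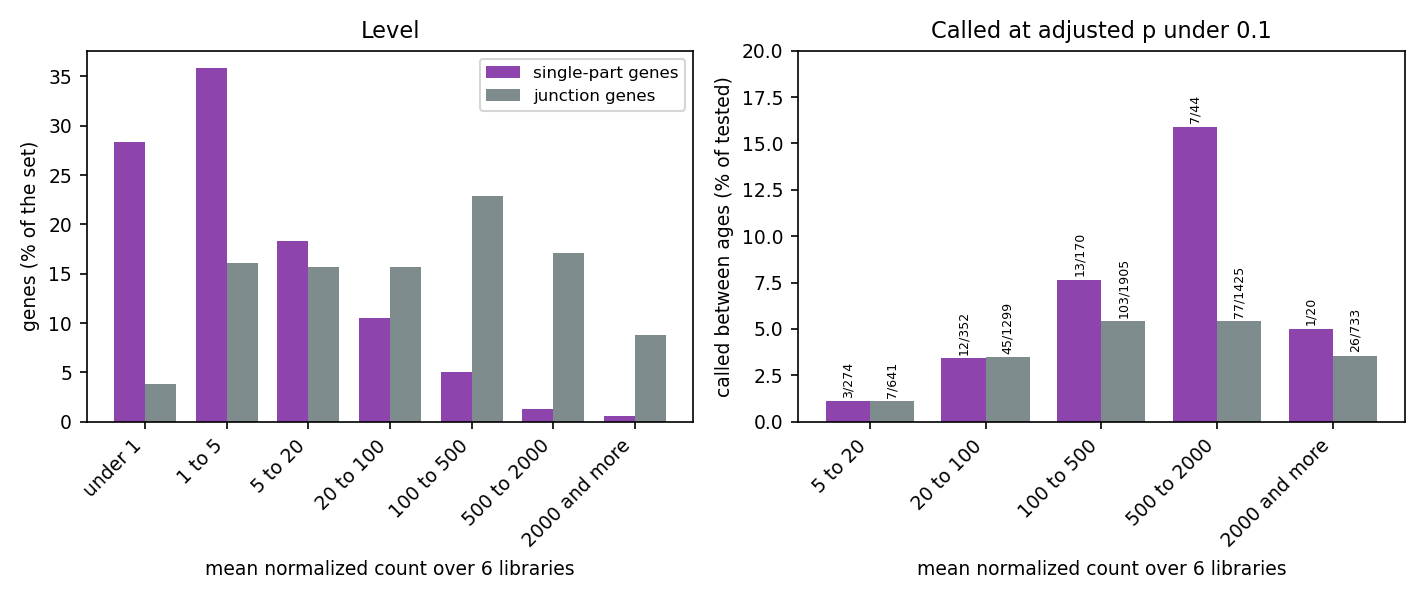
Left, the share of single-part genes (purple) and junction genes (grey), in percent of each set, by mean normalized count over the 6 libraries. Right, the percentage of tested genes called between ages at an adjusted p under 0.1, with the genes called and tested above each bar. Of single-part genes 28.4% had a mean under 1 and 35.8% a mean of 1 to 5, against 3.87% and 16.1% of junction genes.

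Counts on single-part genes took 3.89%, 3.59% and 3.54% of all gene counts at day 40 and 3.02%, 3.43% and 3.31% at day 10. The mean was 3.67% ± 0.190 at day 40 and 3.25% ± 0.208 at day 10 (SD, n = 3 each), and all day 40 values lay above all day 10 values. This separation rested on Arc1: without it, an alternative chosen after seeing the data, the shares were 3.52%, 3.30% and 3.29% at day 40 and 2.99%, 3.39% and 3.21% at day 10, which overlap. With 3 libraries against 3, the smallest p-value that an exact permutation test can give is 0.1, so no test of this share was made. A few genes carried most of it. The highest single-part gene held 14.5% to 23.4% of these counts in a library, the highest 5 held 43.1% to 50.6%, and the highest 20 held 67.9% to 75.4%. Protein-coding genes took 1.89%, 1.66% and 1.58% of all gene counts at day 40 and 1.40%, 1.41% and 1.58% at day 10. The share of snRNA genes was uneven within an age, with 0.0491% in day 40 replicate 1, 0.00440% and 0.00422% in the other day 40 libraries, and 0.0157%, 0.00957% and 0.0122% at day 10.

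Between ages, 860 of the 3359 single-part genes had enough counts to be tested, and 36 of these (4.19%) were called by edgeR's quasi-likelihood test at an adjusted p under 0.1. The share was 4.12% over all 9255 genes and groups tested, and it was 4.30% over junction genes, 258 of 6003. Of the 36, 22 were higher and 14 lower at day 40, where 2.14% of all genes tested were higher and 1.98% lower. In 128 single-part genes (14.9%) the ages did not overlap, meaning that all libraries of an age exceeded those of the other, against 20.2% of all genes tested and 20.6% of junction genes. DESeq2 called 56 of the 860 (6.51%), against 6.82% of all genes tested and 7.15% of junction genes. The median log2 change, day 40 over day 10, was 0.01 in single-part genes, with quartiles of -0.28 and 0.30, and -0.00 in junction genes, with quartiles of -0.20 and 0.19. The number of calls rested on each day 40 library: it was 17 without replicate 1, 15 without replicate 2 and 14 without replicate 3, and 46, 34 and 36 without day 10 replicates 1, 2 and 3.

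Set side by side at matched mean count, the shares called were close at low levels, and at 100 normalized counts and more the share was larger in single-part genes, from few calls. At 5 to 20 normalized counts 3 of 274 single-part genes (1.09%) and 7 of 641 junction genes (1.09%) were called. At 20 to 100 the counts were 12 of 352 (3.41%) and 45 of 1299 (3.46%). From 100 to 500, 13 of 170 single-part genes (7.65%) and 103 of 1905 junction genes (5.41%) were called, and from 500 to 2000, 7 of 44 (15.9%) and 77 of 1425 (5.40%). At 2000 and more it was 1 of 20 (5.0%), Arc1, and 26 of 733 (3.55%). From 100 to 500 the larger share lay in noncoding genes, with 7 of 24 called (29.2%). Protein-coding single-part genes of that class gave 6 of 141 (4.26%), against 102 of 1858 protein-coding junction genes (5.49%). The 7 genes of the 500 to 2000 class were all protein coding. The median log2 change in the 5 classes lay between -0.03 and 0.14 in single-part genes and between -0.06 and 0.04 in junction genes. These are descriptions over genes, which are not replicates, and the difference in the shares was not tested.

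**Figure D2:**
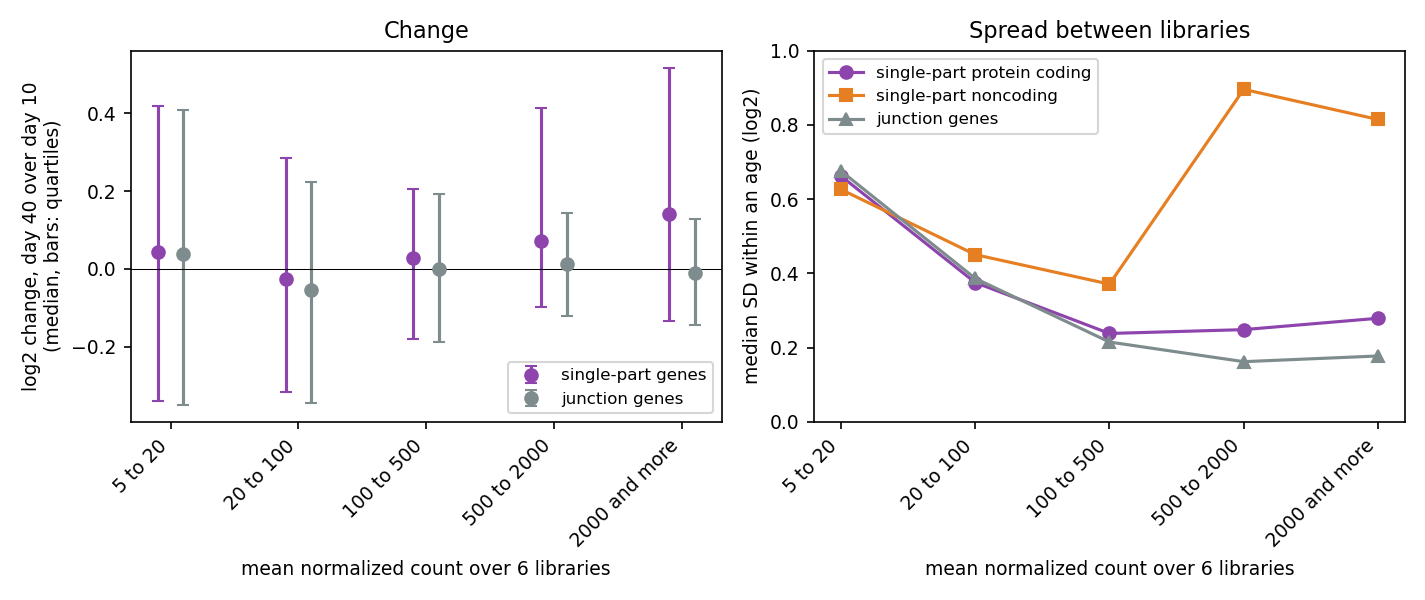
Left, the median log2 change, day 40 over day 10, of tested single-part genes (purple) and junction genes (grey) by mean normalized count, with bars to the quartiles. Right, the median SD of log2(normalized count + 1) within an age for protein-coding (purple) and noncoding (orange) single-part genes and junction genes (grey); noncoding genes of 500 normalized counts or more reached 0.896 and 0.815, from 5 genes in each class.

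The spread between libraries of the same age was larger for highly counted noncoding genes. At 100 to 500 normalized counts, the median SD within an age on the log2(value + 1) scale was 0.371 for 24 noncoding single-part genes, 0.238 for 141 protein-coding ones and 0.215 for junction genes. At 500 to 2000 it was 0.896, 0.248 and 0.162, and at 2000 and more 0.815, 0.279 and 0.177, with 5 noncoding genes in each of these classes. At 5 to 20 the medians were 0.637 for all single-part genes and 0.676 for junction genes.

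The 3 largest rises at day 40 on the log2 scale, of DptA, IBIN and edin, were in genes that respond to infection. IBIN and edin passed the count filter only through their day 40 libraries. DptA encodes diptericin, an antimicrobial peptide of the Imd pathway, and lies on chromosome 2R, 18865765 to 18866260 (BDGP6). It had 2585, 1031 and 1945 normalized counts at day 40 and 14.5, 23.0 and 20.2 at day 10 (log2 change 6.53 ± 0.38 SE, adjusted p = 7.86e-05 in edgeR). Each day 40 library was far above each day 10 library. PGRP-SC2, a secreted amidase that degrades peptidoglycan (chromosome 2R, 8716950 to 8717695), had 173, 70.5 and 130.1 normalized counts at day 40 and 10.6, 13.0 and 17.9 at day 10 (log2 change 3.12 ± 0.39 SE, adjusted p = 0.00593 in edgeR). edin, an infection-induced peptide gene (chromosome 3L, 17494880 to 17495300), had 73.3, 21.3 and 145 normalized counts at day 40 and 9.25, 3.07 and 8.22 at day 10 (log2 change 3.58 ± 0.72 SE, adjusted p = 0.0409 in edgeR). IBIN, another gene induced by infection (chromosome 2R, 17671068 to 17671295), had 131, 10.1 and 159.7 normalized counts at day 40 and 3.97, 4.61 and 1.49 at day 10 (log2 change 4.89 ± 0.96 SE, adjusted p = 0.0372 in edgeR). The ages did not overlap in any of the 4, though day 40 replicate 2 was the lowest day 40 library in each of them, and in IBIN it was over 10-fold below the others. Def, encoding the peptide defensin, was low throughout, with 25.3, 29.1 and 18.6 normalized counts at day 40 and 1.32, 1.54 and 7.47 at day 10 (log2 change 2.66 ± 0.67 SE, adjusted p = 0.0867 in edgeR). DptA and PGRP-SC2 were called in every fit that left out 1 library. The edin call was lost without day 40 replicate 1 (adjusted p = 0.128), day 40 replicate 3 (0.156, with a log2 change of 2.78) or day 10 replicate 2 (0.106), and the IBIN call without day 40 replicate 1 (0.133) or day 10 replicate 3 (0.117); without day 40 replicate 3 IBIN was not tested. Def kept its call only without day 10 replicate 3 (adjusted p = 0.0392), where its log2 change was 3.96.

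Of the list of antimicrobial peptide genes, 10 were single-part genes and 6 could be tested. Of these 6, 3 (DptA, edin and Def) were higher at day 40 and none lower. Over all genes tested, 2.14% were higher and 1.98% lower. The median log2 change of the 6 was 1.76, against -0.0067 over all genes tested. With 7, 4 and 11 reads (edin) and 1, 2 and 10 reads (Def) at day 10, these 2 genes passed the count filter only through day 40. They were tested because they were high at day 40, so this count and this median are no evidence of a rise of the list. This list, like the others, was chosen with results of these data known. The other 3 of those tested did not pass. Drsl5, of the drosomycin family, was the most abundant, with 14716, 7819.8 and 6485 normalized counts at day 40 and 7480.3, 5736 and 5869 at day 10 (log2 change 0.60, adjusted p = 0.368 in edgeR), with overlapping ages and day 40 replicate 1 high. Drsl4 had 1791, 573 and 619 normalized counts at day 40 and 258, 703 and 798 at day 10 (adjusted p = 0.569), with overlapping ages and day 40 replicate 1 high. Mtk, encoding metchnikowin, had 100.004, 48.1 and 53.2 normalized counts at day 40 and 34.4, 25.3 and 49.3 at day 10 (adjusted p = 0.358). The 4 others (Drsl1, Drsl2, Drsl3 and Drsl6) stayed at or under 8.0 normalized counts in every library. Of the fat body and hemocyte markers, which belong to cells that make these peptides in infected flies, none was called higher at day 40 and Yp2 and Hml were lower, with the sums given above, and their part in the result was not tested.

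Arc1 was the highest called gene. Arc1 and Arc2 descend from retrotransposon Gag proteins, and the Arc1 protein forms capsids that carry RNA between cells; the genes lie next to each other on chromosome 2R, at 14357927 to 14360297 and 14361924 to 14362825. Arc1 had 41998, 31907 and 25769 normalized counts at day 40 and 4266, 3949.7 and 9638 at day 10 (log2 change 2.46 ± 0.36 SE, adjusted p = 0.0120 in edgeR). Arc2 had 216, 217 and 215 normalized counts at day 40 and 26.4, 31.5 and 90.4 at day 10 (log2 change 2.08 ± 0.41 SE, adjusted p = 0.0373 in edgeR). Day 10 replicate 3 held the highest day 10 value of both, and the day 40 values lay above it throughout. Without that library the log2 changes were 3.03 and 2.90. Arc1 was called in each fit that left out 1 library. The Arc2 call was lost without day 40 replicate 1 (adjusted p = 0.133), replicate 2 (0.108) or replicate 3 (0.115).

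Among the other protein-coding genes that were higher, CG34227 (chromosome 2R, 11248126 to 11248610) had 933, 731 and 658 normalized counts at day 40 and 144, 199 and 170.3 at day 10 (log2 change 2.16 ± 0.17 SE, adjusted p = 0.000305 in edgeR). CG45045 had 140.0, 66.0 and 125 normalized counts at day 40 and 18.5, 13.0 and 4.48 at day 10 (log2 change 3.26 ± 0.48 SE, adjusted p = 0.0119 in edgeR). Nepl15, a neprilysin-like gene, had 1385, 1572 and 1419 normalized counts at day 40 and 687, 901 and 707 at day 10 (log2 change 0.93 ± 0.12 SE, adjusted p = 0.00827 in edgeR). These genes were called in each fit that left out 1 library. Gadd45, a gene of the stress response, had 400.015, 310.1 and 297 normalized counts at day 40 and 151, 124 and 196 at day 10 (log2 change 1.08 ± 0.21 SE, adjusted p = 0.0343 in edgeR), and lost its call without day 40 replicate 1 (adjusted p = 0.139). aay, encoding phosphoserine phosphatase, the last enzyme of serine synthesis, had 2136, 2014 and 1805 normalized counts at day 40 and 1137, 1524 and 1167 at day 10 (log2 change 0.63 ± 0.13 SE, adjusted p = 0.0421 in edgeR). All day 40 values of aay lay above all day 10 values, but its call was lost without any of the day 40 libraries (adjusted p = 0.179, 0.217 and 0.101 without replicates 1, 2 and 3). CG1138 and CG42808 were higher by 1.90 and 1.15 on the log2 scale (adjusted p = 0.0250 and 0.0449 in edgeR), and each lost its call without day 40 replicate 2 (adjusted p = 0.135 and 0.191), CG1138 also without day 40 replicate 3 (0.129), and CG42808 also without day 40 replicate 1 (0.145) or day 10 replicates 2 and 3 (0.105 and 0.122). CG14567 and eIF6, the factor that keeps the large ribosomal subunit from joining early, complete the list and were named after their values were seen, with adjusted p of 0.0847 and 0.0994; eIF6 differed by 0.65 on the log2 scale, and both were called only in the fit without day 10 replicate 3 among those that left out 1 library.

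**Figure D3:**
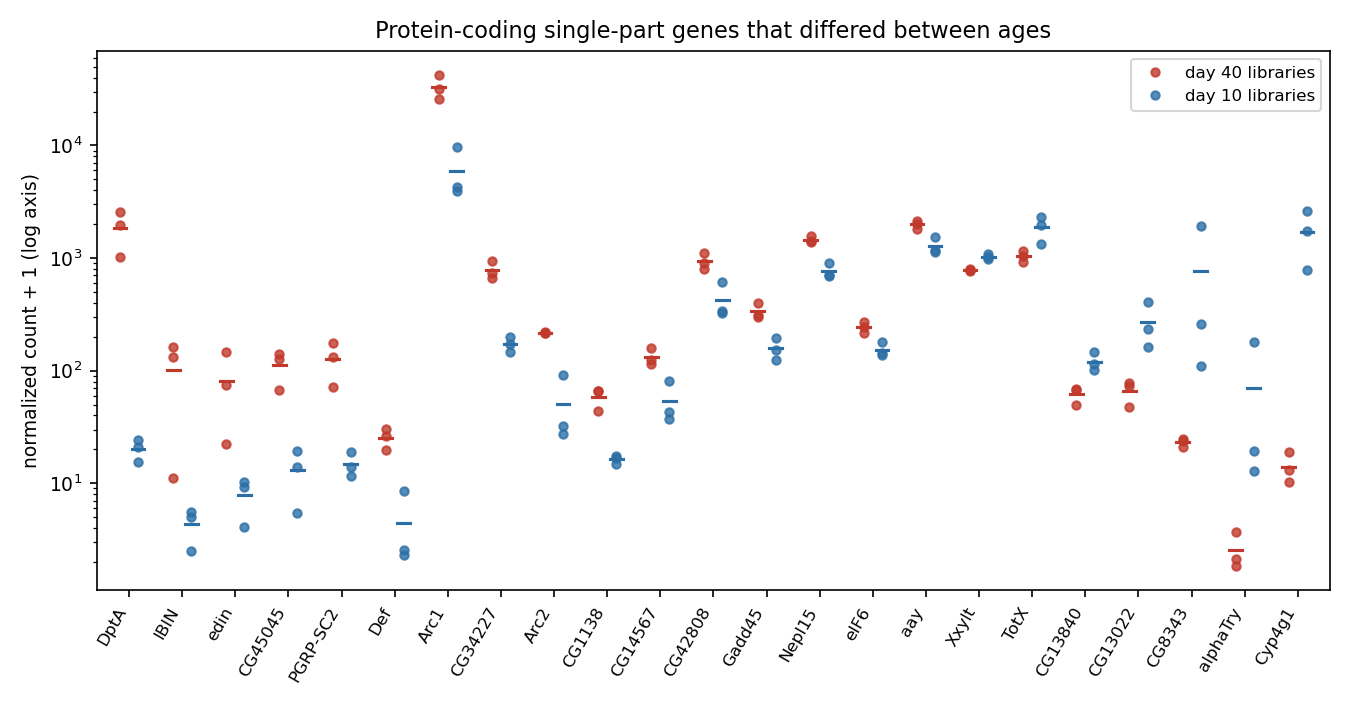
Normalized counts + 1 on a log axis of the 23 protein-coding single-part genes called between ages, ordered by log2 change, with 3 day 40 libraries (red, left) and 3 day 10 libraries (blue, right) for each gene and bars at the means. Arc1 lies at 25769 to 41998 in day 40 libraries, and the day 10 values of CG8343 and alphaTry span over 10-fold.

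Of the 7 protein-coding genes that fell, Cyp4g1 changed the most. It encodes the cytochrome P450 of oenocytes that makes cuticular hydrocarbons, and lies on chromosome X, 467057 to 469335 inside the span of CG32816. Cyp4g1 had 12, 17.9 and 9.30 normalized counts at day 40 and 779, 2593 and 1737 at day 10 (log2 change -7.04 ± 0.51 SE, adjusted p = 0.000211 in edgeR), and it was called in each fit that left out 1 library. CG32816 itself was lower as well, by -1.26 on the log2 scale (adjusted p = 0.0202 in edgeR). CG13022 had 77.3, 47.0 and 71.8 normalized counts at day 40 and 407, 233 and 162 at day 10 (log2 change -2.02 ± 0.34 SE, adjusted p = 0.0202 in edgeR) and was likewise called in each of these fits. TotX, a Turandot stress peptide gene, had 1048, 1155 and 923 normalized counts at day 40 and 1964, 2332 and 1329.5 at day 10 (log2 change -0.85 ± 0.18 SE, adjusted p = 0.0496 in edgeR), with the ages apart; its call was lost without day 10 replicate 2 (adjusted p = 0.107) or day 40 replicate 1, 2 or 3 (0.195, 0.166 and 0.203).

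The size of the falls of CG8343 and alphaTry rested on day 10 replicate 3. CG8343 had 20, 23.5 and 22.8 normalized counts at day 40 and 108, 258 and 1911 at day 10 (log2 change -5.12 ± 1.06 SE, adjusted p = 0.0449 in edgeR), and without day 10 replicate 3 its log2 change was -3.03 (adjusted p = 0.00881). alphaTry, a digestive trypsin, had 2.67, 1.12 and 0.845 normalized counts at day 40 and 11.9, 18.4 and 179 at day 10 (log2 change -5.54 ± 1.30 SE, adjusted p = 0.0710 in edgeR), and -3.29 without that library (adjusted p = 0.0939). The library is the same in which Yp2 and Hml were highest. Both genes lost their calls without any of the day 40 libraries, with adjusted p of at most 0.193 for CG8343 and 0.239 for alphaTry. DESeq2 gave no adjusted p for alphaTry, so it could not call this gene. Xxylt, a xylosyltransferase gene, and CG13840 had smaller falls, of -0.40 and -0.98 on the log2 scale (adjusted p = 0.0759 and 0.0785 in edgeR), and their adjusted p reached 0.417 and 0.271 with 1 library left out.

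**Figure D4:**
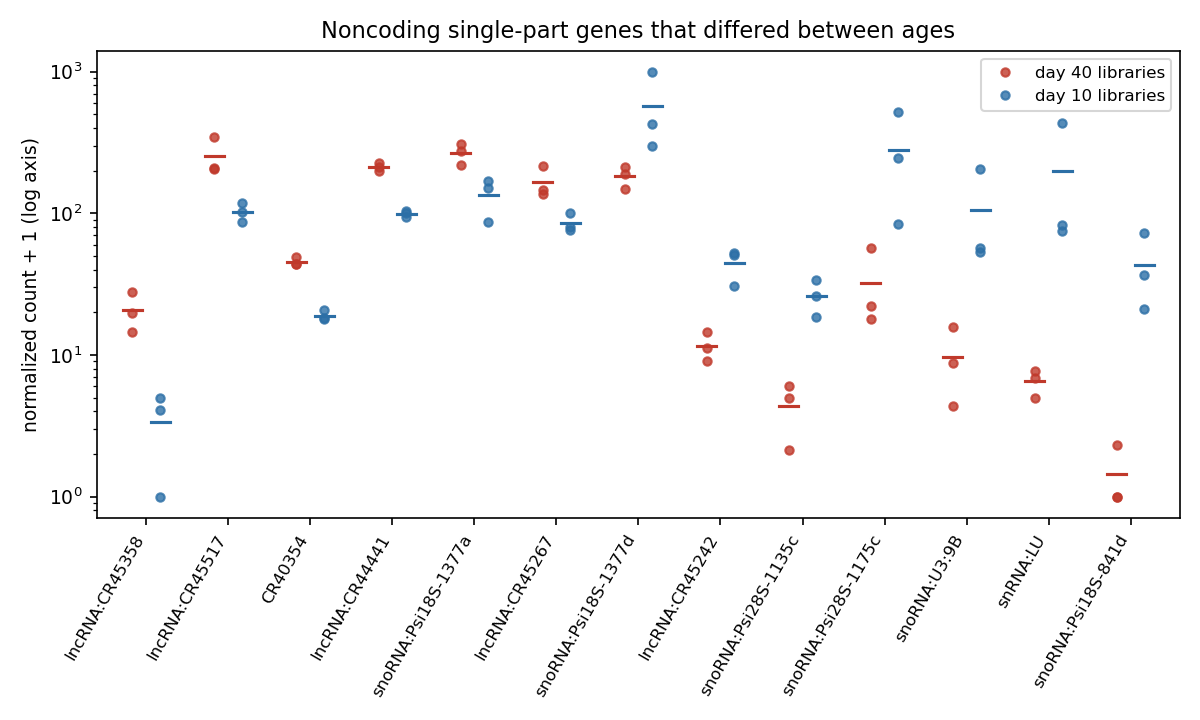
Normalized counts + 1 on a log axis of the 13 noncoding single-part genes called between ages, ordered by log2 change, with 3 day 40 libraries (red, left) and 3 day 10 libraries (blue, right) for each gene and bars at the means. snoRNA:Psi18S-841d had 1 read in all in the day 40 libraries, drawn at 1 where the count was 0.

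Of the 1839 noncoding single-part genes (tRNA, rRNA and other structured RNA, lncRNA and pseudogenes), 296 could be tested and 13 (4.39%) were called, close to the 4.12% of all genes tested, 6 higher and 7 lower at day 40. Among 207 lncRNAs tested 5 were called (2.42%), 4 of them higher. lncRNA:CR44441, on chromosome 4 (194732 to 195900), had 212, 227 and 199 normalized counts at day 40 and 92.5, 104 and 99.3 at day 10 (log2 change 1.10 ± 0.16 SE, adjusted p = 0.0108 in edgeR). lncRNA:CR45517 on chromosome X (5428483 to 5429256) had 345, 206 and 208 normalized counts at day 40 and 118, 86.0 and 101 at day 10 (log2 change 1.31 ± 0.24 SE, adjusted p = 0.0269 in edgeR). Values within an age were close in lncRNA:CR44441, while day 40 replicate 1 stood above the other day 40 libraries in lncRNA:CR45517, and both genes were called in each fit that left out 1 library. lncRNA:CR45242 was the lncRNA that fell, with 8.0, 13.4 and 10.1 normalized counts at day 40 and 51.6, 49.9 and 29.9 at day 10 (log2 change -2.03 ± 0.41 SE, adjusted p = 0.0402 in edgeR), and its call was lost without any of the day 40 libraries (adjusted p = 0.161, 0.127 and 0.162 without replicates 1, 2 and 3). lncRNA:CR45267 and lncRNA:CR45358 were called (adjusted p = 0.0733 and 0.0941) but in no fit that left out 1 library; the log2 change of lncRNA:CR45358 was 3.13, and 2.48 without day 10 replicate 3. They and the pseudogene CR40354 were named after their values were seen.

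Box H/ACA snoRNAs held most of the other calls. Of 106 snoRNA:Psi genes 35 could be tested, 1 was higher and 4 were lower at day 40, and their median log2 change was -0.57; the Me genes, 61 in all, gave 4 to test, of which none was called by edgeR or DESeq2 and none had an unadjusted p under 0.05. Over all 53 snoRNAs and scaRNAs tested, 6 were called (11.3%, against 4.12% of all genes tested), with a median log2 change of -0.35. They were highest in day 40 replicate 1 in 17 of 53 genes and in day 10 replicate 3 in 18, where junction genes had 18.2% and 19.4% of their genes highest in these libraries. The counting of reads with more than 1 possible position is not given in the sources used here, and copies that share most of their sequence, marked by a letter after the number, can exchange reads.

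snoRNA:Psi18S-841d fell to 1 read in the 3 day 40 libraries together, against 149 reads in the day 10 libraries (1.33, 0 and 0 normalized counts at day 40 and 35.7, 19.96 and 71.7 at day 10; log2 change -6.49 ± 0.97 SE, adjusted p = 0.0122 in edgeR). The ratio of these reads per normalized depth was 0.00807, with a 95% counting interval of 0.000203 to 0.0457. The 4 genes of that family summed to 17.3, 7.84 and 7.61 at day 40 and 51.6, 30.7 and 88.1 at day 10. snRNA:LU, inside the span of FASN2, had 4.0, 6.72 and 5.92 normalized counts at day 40 and 74.0, 82.1 and 432 at day 10 (log2 change -5.13 ± 0.85 SE, adjusted p = 0.0190 in edgeR). snoRNA:U3:9B, a copy of the U3 RNA of rRNA processing, had 14.7, 7.84 and 3.38 normalized counts at day 40 and 55.5, 52.2 and 205 at day 10 (log2 change -3.70 ± 0.71 SE, adjusted p = 0.0344 in edgeR). Day 10 replicate 3 was the highest library of these 3, yet the other day 10 values also lay above all day 40 values; without it the log2 changes of snRNA:LU and snoRNA:U3:9B were -3.75 and -2.69. That of snoRNA:Psi18S-841d, which its single day 40 read makes uncertain, was -5.81 with day 10 replicate 3 left out, and -8.55 and -5.88 with day 40 replicates 1 and 3 left out in turn. The call of snRNA:LU was lost without day 40 replicate 1 (adjusted p = 0.106) and that of snoRNA:U3:9B without day 40 replicate 2 (0.134) or 3 (0.129). FASN2, whose span holds snRNA:LU, had a log2 change of -1.66 and was not called (adjusted p = 0.151 in edgeR). Features carry no strand, so reads of its unspliced transcript cannot be told apart from those of snRNA:LU.

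The snoRNAs that lie in other genes were set beside those host genes. snoRNA:Psi28S-1175c, in the span of RpS16, had 56.0, 21.3 and 16.9 normalized counts at day 40 and 83.3, 243 and 515 at day 10 (log2 change -3.25 ± 0.67 SE, adjusted p = 0.0438 in edgeR), where RpS16 differed by 0.10 on the log2 scale. snoRNA:Psi28S-1135c, in RpS5a, had 4.0, 1.12 and 5.07 normalized counts at day 40 and 25.1, 17.7 and 32.9 at day 10 (log2 change -2.82 ± 0.61 SE, adjusted p = 0.0496 in edgeR), where RpS5a differed by -0.05. The log2 change of snoRNA:Psi28S-1175c was -2.43 with day 10 replicate 3 left out and -3.90 with day 40 replicate 1 left out. Both calls were lost without day 40 replicates 2 (adjusted p = 0.178 and 0.217) and 3 (0.163 and 0.129), and the second also without day 40 replicate 1 (0.189) or day 10 replicate 3 (0.137). Neither host passed the test, which does not show that it did not change.

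The RpS7 locus held 5 copies, of which 1 was called higher and 1 lower at day 40. Of snoRNA:Psi18S-1377a to e, copy a was higher at day 40, with 219, 307 and 275 normalized counts at day 40 and 85.9, 149 and 168 at day 10 (log2 change 0.97 ± 0.25 SE, adjusted p = 0.0941 in edgeR). Copy d was lower, with 211, 189 and 148 normalized counts at day 40 and 297, 427 and 993 at day 10 (log2 change -1.68 ± 0.41 SE, adjusted p = 0.0785 in edgeR). Copies b, c and e had log2 changes of 0.79, 1.64 and 0.81 and did not pass. Summed over the copies the values were 645, 631 and 601 at day 40 and 459, 661 and 1282 at day 10, which overlap. RpS7 had a log2 change of 0.19 (adjusted p = 0.558). Neither copy kept its call without day 40 replicate 1, 2 or 3: adjusted p was 0.161, 0.334 and 0.264 for copy a, and 0.216, 0.228 and 0.247 for copy d, and copy a also lost it without day 10 replicate 2 (0.150). Without day 10 replicate 3 copy d had a log2 change of -0.98.

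**Figure D5:**
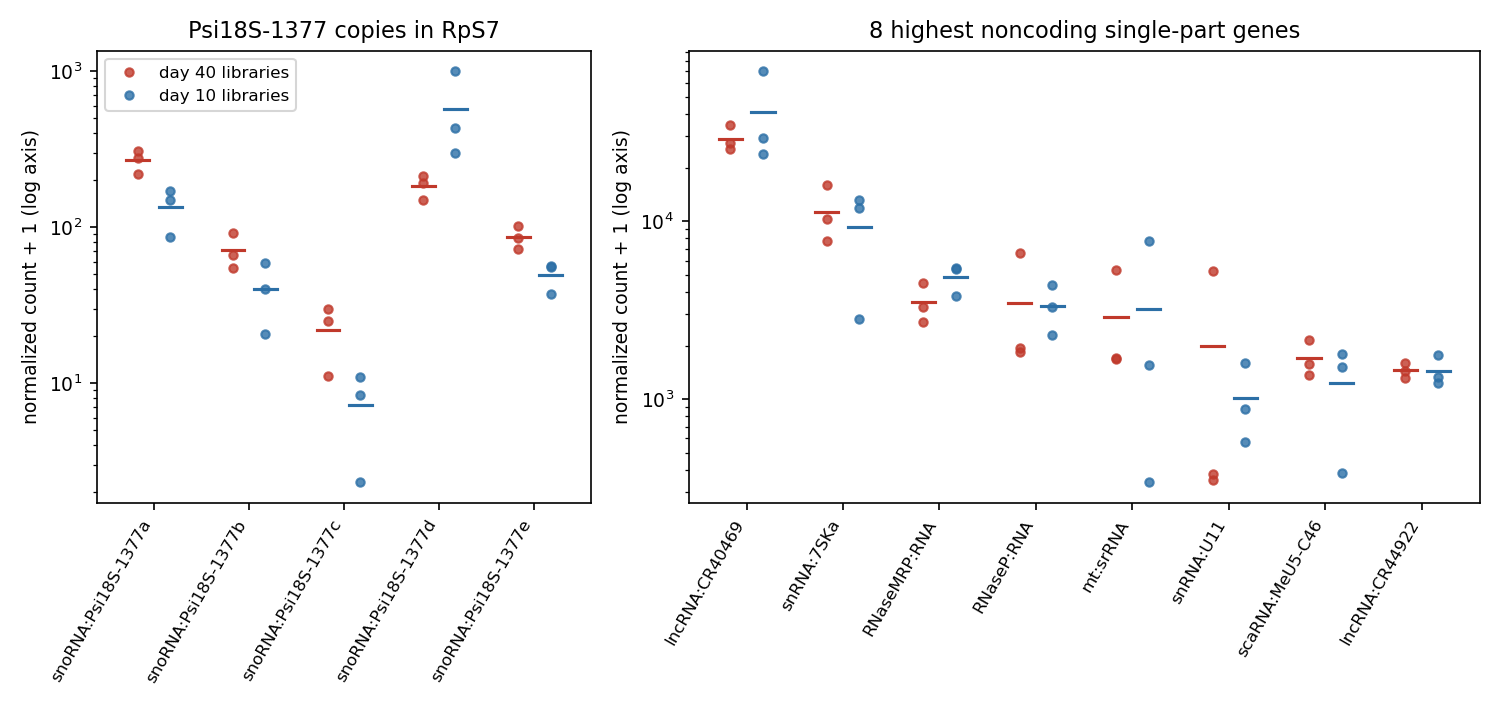
Normalized counts + 1 on a log axis in 3 day 40 libraries (red, left) and 3 day 10 libraries (blue, right) for each gene, with bars at the means. Left, the 5 snoRNA:Psi18S-1377 copies inside RpS7. Right, the 8 single-part genes classed as noncoding with the highest mean, without genes that were not annotated. snRNA:U11 lies at 5231 in day 40 replicate 1 and at 377 and 350 in the other day 40 libraries.

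The 8 most abundant genes classed as noncoding did not pass the test, and in most of them a single library stood apart from the others of its age. snRNA:U11, of the minor spliceosome, had 5231, 377 and 349.9 normalized counts at day 40 and 1585, 878 and 573 at day 10 (log2 change 0.96, adjusted p = 0.717 in edgeR). snRNA:7SKa, which regulates transcription elongation, had 15969, 10284 and 7705 normalized counts at day 40 and 2825, 13153 and 11822 at day 10 (adjusted p = 0.867). RNaseP:RNA, the RNA of the enzyme that trims tRNA precursors, had 6666, 1936 and 1847 normalized counts at day 40 and 4404, 3272 and 2280.4 at day 10 (adjusted p = 0.975). Day 40 replicate 1 was the highest library of each of these genes, by over 10-fold over the other day 40 libraries for snRNA:U11. RNaseMRP:RNA, which acts in rRNA processing, had 4483, 3313 and 2721 normalized counts at day 40 and 5397, 3799 and 5464 at day 10 (log2 change -0.49, adjusted p = 0.325). lncRNA:CR40469 was the highest of all noncoding genes, with 25337, 34837 and 27392 normalized counts at day 40 and 69724, 29481 and 23824 at day 10 (adjusted p = 0.617), the highest value being day 10 replicate 1. mt:srRNA, the small ribosomal RNA of the mitochondrion, had 1704, 1685 and 5341 normalized counts at day 40 and 1545, 7749.7 and 339 at day 10 (adjusted p = 0.975). The values of mt:srRNA span over 10-fold within day 10, and the part of the depletion of ribosomal RNA in them was not tested. scaRNA:MeU5-C46 had 2145, 1567 and 1358 normalized counts at day 40 and 382, 1784 and 1523 at day 10 (adjusted p = 0.733), with day 10 replicate 1 low, and lncRNA:CR44922 differed by 0.01 on the log2 scale. In RNaseMRP:RNA and lncRNA:CR44922 no single library stood apart in this way. CR34335, among the genes that were not annotated, was left out of this ranking and is named after its values were seen. Its mean was 4705 normalized counts over the 6 libraries, above that of RNaseMRP:RNA, and it was not called (adjusted p = 0.537 in edgeR).

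The most abundant nuclear protein-coding genes included eye genes, and apart from Arc1 those named here did not pass in edgeR either. Cpr72Ec, a cuticle protein of the corneal lens, had 12506, 12622 and 11644 normalized counts at day 40 and 22491, 17546 and 13336 at day 10 (log2 change -0.54, adjusted p = 0.205), and all its day 40 values lay below all its day 10 values. Rh3, the ultraviolet-sensitive rhodopsin of R7 cells, had 12464, 13610.3 and 12152 normalized counts at day 40 and 10219, 9641 and 7330.4 at day 10 (log2 change 0.49, adjusted p = 0.148), with the ages apart in the other direction. DESeq2 called both genes, with an adjusted p of 0.0529 for Cpr72Ec and 0.0270 for Rh3. CG17108, CG13928, CG6770 and SoxN, the last a Sox transcription factor, had log2 changes of -0.22, -0.19, 0.18 and 0.07. Of the mitochondrial messenger RNAs, mt:CoI, for subunit I of cytochrome oxidase, averaged 84889 ± 3792 normalized counts at day 40 and 71162 ± 20442 at day 10 (SD, n = 3 each) (log2 change 0.25, adjusted p = 0.681), and it was the most abundant single-part gene. None of the 6 mitochondrial messenger RNAs was called by edgeR or DESeq2, and none had an unadjusted p under 0.05.

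Lists of gene families known for lacking introns held few genes that could be tested. Of the heat shock and Hsc70 chaperones 6 were single-part genes and 3 could be tested, none called by edgeR or DESeq2 and none with an unadjusted p under 0.05. Hsp70Bb had 1787, 695 and 569.6 normalized counts at day 40 and 993, 1068 and 494 at day 10, overlapping, and its near-identical copies can share reads. Of 14 Enhancer of split and Bearded genes, targets of Notch, 3 could be tested and none was called by either tool or at an unadjusted p under 0.05. E(spl)m2-BFM had 41.3, 15.7 and 49.0 normalized counts at day 40 and 106, 59.1 and 42.6 at day 10 (adjusted p = 0.427). Of 14 developmental transcription factors, 5 were tested, likewise with none called by either tool or at an unadjusted p under 0.05; brk, a repressor of Dpp targets, had 515, 541 and 556 normalized counts at day 40 and 697, 553 and 443 at day 10. The inducers of cell death skl and rpr had log2 changes of 0.79 and 0.48, neither called by either tool, and 1 had an unadjusted p under 0.05. Of the 98 histone genes 82 had no count in any library, and 2 could be tested; His2B:CG33868 had 13.3, 10.1 and 22.0 normalized counts at day 40 and 33.0, 29.9 and 66.5 at day 10 (log2 change -1.50, adjusted p = 0.173 in edgeR). The ages of His2B:CG33868 did not overlap, edgeR called neither histone gene, 1 had an unadjusted p under 0.05 and DESeq2 called 1. Histone copies are near identical, and the messages lack a poly(A) tail, which total RNA does not require. Of the genes named 5S rRNA, 100 in all, 30 had any read and none could be tested.

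The share of genes that could be tested differed with position and length. A total of 741 single-part genes lay inside the span of another counted gene, 293 of them were tested and 8 were called (2.73%), against 28 of 567 (4.94%) outside. For lncRNAs, the nested ones had a median of 9.17 normalized counts over 164 genes and the others 2.02 over 896 genes. Of 84 nested lncRNAs tested none was called by edgeR or DESeq2, with 2 at an unadjusted p under 0.05, and of 123 others 5 were called. The features carry no strand, so that reads of the host's unspliced transcript and of a nested gene cannot be told apart. Across 83 nested lncRNAs with a tested host, Spearman's rho between the log2 changes of gene and host was 0.284, and across 151 nested protein-coding genes it was 0.074; the genes of a pair share libraries and position, and genes are not independent replicates.

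Of 390 single-part genes shorter than 100 bases, 64.9% had any read and 13 could be tested, none of them called by edgeR at either an adjusted p under 0.1 or an unadjusted p under 0.05. From 100 to under 200 bases 51 of 311 were tested and 7 called (13.7% of those tested). From 200 to under 400 bases it was 67 of 399 and 4 (5.97%), and from 400 to under 1000 bases 302 of 1439 and 13 (4.30%). At 1000 bases or more it was 427 of 820 and 12 (2.81%). Over all genes tested 4.12% were called. The 7 calls of the class from 100 to under 200 bases were the 6 snoRNAs and snRNA:LU. On chromosome 2R 16 of 171 tested single-part genes (9.36%) were called, against 4.82% of the 1391 genes counted alone that were tested there. On the other arms the shares were 3.08% against 3.21% on X, 1.53% against 3.54% on 2L, 3.11% against 4.60% on 3L and 3.48% against 5.19% on 3R, and on chromosome 4 they were 1 of 6 single-part genes (16.7%) against 3.17%. Neighbours on 2R such as Arc1 and Arc2 are not independent of each other, and the difference between arms was not tested.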

How the data were processed

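Dissected eyes were sequenced at day 40 and day 10, with 3 libraries per age that the study calls biological replicates. The authors trimmed the reads with Trimmomatic and aligned them with TopHat to BDGP6, per the labels, and deposited, for each library, raw counts of genes, of their exonic parts and of annotated and new junctions. The versions are not given in the sources used here. Positions come from the authors' deposited table of comparisons, with 1 added to its start coordinates; its fold changes, p-values and mean signal were not used. Features carry no strand. Names and classes come from the Release 6 annotation, with 3278 of 3359 genes matched and 20 named from identifiers in the study's tables.

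Single-part genes have no plus sign in the identifier, exactly 1 exonic part and no junction. Gene counts of all 14537 genes and groups were tested with edgeR 4.0.16 in R 4.3.3 (quasi-likelihood test, TMM factors, default count filter, Benjamini-Hochberg adjustment over the 9255 genes tested, threshold 0.1). The standard error (SE) given for a log2 change was derived from the test, as its absolute value divided by the square root of the quasi-likelihood F statistic. DESeq2 1.42.0, other scalings and filters, a threshold of 0.05, a replicate block and leaving out each library were the alternatives. The script was tested on simulated data. For normalized counts, each library was divided by its median-ratio size factor, and the spread is the SD of log2(normalized count + 1). Total gene counts per library were 8476220 to 15029770, and intervals cover counting error only. All libraries differed by more than counting noise (chi-square per degree of freedom 21.5 to 66.2).

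Genes named are those called with ages apart (at most 15 in each direction, by lowest p) and at most 4 per list. The 8 genes classed as coding and the 8 classed as noncoding with the highest mean were named too. Others are marked in the text. The members and lists were chosen with earlier results of these data known.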

Additional observations from a re-analysis of the deposited data

How the results depend on the processing

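Of the 36 calls, 11 held in every fit that left out 1 library and in every other alternative that was run, and none of the 36 changed direction. With 1 library left out, 14 to 46 single-part genes were called (9 to 23 higher, 4 to 23 lower, 9 to 30 protein coding, 4 to 16 noncoding), and 75 to 307 junction genes. DESeq2 called 56 single-part genes (23 lower, 40 protein coding; 35 of the 36 among them) and 429 junction genes. At an adjusted p under 0.05, 25 single-part genes were called, 8 of them noncoding, and 147 junction genes. With genes counted alone as the denominator, the share of counts was 5.34% at day 40 and 4.71% at day 10. Of all gene counts, the share was 3.67% at day 40 and 3.25% at day 10. Without the counts of Arc1, a choice made after seeing the data, this share of all gene counts was 3.37% and 3.20%. No other scaling or filter moved a count of calls by over 1.5 times. All 80 medians by mean count moved by less than 1 SD, which is a wide limit, as the largest shift was 0.34 on the log2 scale. With 1 library left out, the median of junction genes at 5 to 20 normalized counts ranged from -0.30 to 0.17. That of single-part genes in the same class ranged from -0.11 to 0.08. The cause of these differences was not tested.

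Deviations from the mean of the age had correlations of -0.02, -0.01 and 0.16 between same-numbered libraries, and not every library correlated best with its own number. Such correlations cannot show whether same-numbered libraries were collected or processed together. With the replicate block 41 single-part genes were called (23 higher, 18 lower), 33 of the 36 among them, and the log2 changes of RNaseP:RNA, mt:srRNA and snRNA:U11 were -0.16, 0.45 and -0.077.

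Among 30 named genes that were not called, 11 changed direction in at least 1 alternative, counting the fits that left out a library and the others. Over all alternatives their log2 changes ranged from -0.016 to 0.13 for SoxN, -0.76 to 0.13 for lncRNA:CR40469, -0.14 to 0.60 for snRNA:7SKa, -0.80 to 0.36 for RNaseP:RNA, -0.91 to 1.63 for mt:srRNA, -1.46 to 1.46 for snRNA:U11, -0.089 to 0.17 for lncRNA:CR44922, -0.41 to 0.54 for Hsp70Bb, -0.27 to 0.10 for E(spl)mbeta-HLH, -0.45 to 0.13 for E(spl)m3-HLH and -0.20 to 0.11 for brk. A total of 2499 single-part genes had too few counts to be tested, and the part of depth in this was not tested.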
